A study of Homo sapiens with 4 samples.

Results

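Mitochondrially encoded genes were taken as every row of the deposited gene table whose name starts with MT-, which gave 37 of 47251 genes, namely 13 protein genes, 2 rRNA genes and 22 tRNA genes. RNA had been sequenced from AGS, an established cell line of human gastric adenocarcinoma, in 4 libraries. In 2 libraries (sh-MFAP2 replicates 1 and 2) the cells carried 1 short hairpin RNA (shRNA) directed against the mRNA of MFAP2, a protein of extracellular microfibrils, and in 2 libraries (control replicates 1 and 2) they carried a scrambled control shRNA. The shRNAs were delivered by lentivirus and the infected cells were kept under puromycin, so that all 4 libraries come from infected and selected cells, and the knockdown rests on 1 hairpin in 1 line. No source used here states that the replicates are separate cultures, and the p-values below then measure only the spread between these libraries, which may be technical.

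The human mitochondrial genome is a small circle transcribed from a noncoding control region into long RNAs that cover many genes. Its protein genes encode subunits of respiratory complexes I, III and IV and of ATP synthase, its rRNA genes encode the RNAs of the mitochondrial ribosome, and its tRNA genes supply the tRNAs for translation inside the organelle. The tRNA genes lie between most of the other genes, and enzymes that cut at the tRNAs, RNase P and ELAC2, release the separate RNAs. Transcripts of this genome are used by every respiring cell and are as a rule among the abundant RNAs of epithelial cells.

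The deposited values are taken as FPKM, fragments scaled by transcript length and library depth, and in these values most of the mitochondrial genome was listed at 0. Of the 37 genes, 27 were listed at 0 FPKM in all 4 libraries and 10 were above 0 in at least 1 library. Only MT-TP, the gene of the proline tRNA, was above 0 in all 4. Without overlap between the groups, 4 genes were lower in the sh-MFAP2 libraries, and 2 of them were above 1 FPKM in any library, MT-TP and MT-TF, the gene of the phenylalanine tRNA. The other 2, MT-ND2 and MT-TN, stayed below 1 FPKM. This pattern is not particular to the mitochondrial genome. Of the 9873 genes tested further below, 31.4% were lower in sh-MFAP2 without overlap, against 33.3% of the 6 mitochondrial genes among them. Since genes that every cell uses are listed at 0, a 0 in this table says only that the gene is listed at 0, and not that its RNA was missing from the cells.

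The sequences of both tRNA genes are shown with that of MT-TT, the threonine tRNA gene next to MT-TP, which was listed at 0 in all 4 libraries. They were read from the GENCODE 29 transcripts on GRCh38, 5′ to 3′ on the coding strand as DNA, and capitals mark the anticodon. MT-TF lies at chrM:577-647 on the plus strand, MT-TT at chrM:15888-15953 on the plus strand and MT-TP at chrM:15956-16023 on the minus strand.
MT-TF: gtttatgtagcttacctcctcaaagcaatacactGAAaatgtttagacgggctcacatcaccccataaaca
MT-TP: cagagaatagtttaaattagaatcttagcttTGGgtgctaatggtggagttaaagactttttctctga
MT-TT: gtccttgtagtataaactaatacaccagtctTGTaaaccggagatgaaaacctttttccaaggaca

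In the order of genes along the annotated molecule MT-TF is the first and MT-TP the last, so that on the circle they flank the control region from its 2 sides. MT-TF is followed directly by MT-RNR1, the 12S rRNA gene, which was listed at 0 in all 4 libraries. MT-TP is preceded by MT-TT at a distance of 2 bases and on the opposite strand. None of the 25-base stretches of the 22 tRNA genes occurred in any other annotated transcript outside the MT- genes, on either strand. The genes of 66 to 71 bases shown above are all of the length usual for the class, whose members span 59 to 75 bases.

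**Figure D1:**
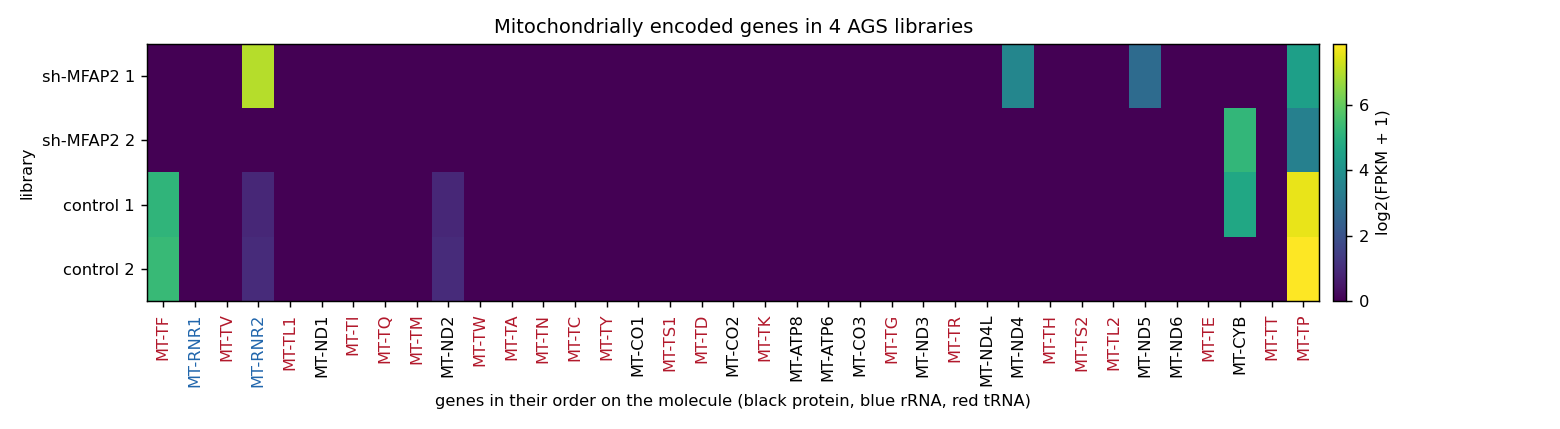
Values of the 37 mitochondrially encoded genes on the log2(FPKM + 1) scale (colour), with the genes in their order on the molecule along the x axis and the 4 libraries along the y axis. Most cells are at 0, and MT-TF and MT-TP at the 2 ends are brightest in both control libraries.

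Among the tRNA genes, MT-TP had the highest values. It was listed at 20.6 and 9.70 FPKM in replicates 1 and 2 of sh-MFAP2, against 193 and 231 FPKM in control replicates 1 and 2. Both controls were far above both sh-MFAP2 libraries, with a mean of 15.2 ± 7.73 FPKM (SD, n = 2) against 212 ± 26.4 FPKM (SD, n = 2), 14-fold lower in sh-MFAP2 on the FPKM scale. The fold was 21.9 without sh-MFAP2 replicate 1, and between single libraries it ran from 9.37 to 23.8. Genes were tested as log2(FPKM + 1) in limma over the 9873 genes whose mean reached 1 FPKM, and a gene was called at p under 0.01 and an adjusted p under 0.05. The difference of MT-TP was -3.80 on that scale (standard error 0.394), with an unadjusted p of 0.000854 and an adjusted p of 0.136 from limma with Benjamini-Hochberg adjustment, so that it was not called.

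MT-TF was listed at 0 and 0.00709 FPKM in replicates 1 and 2 of sh-MFAP2, against 34.6 and 38.4 FPKM in control replicates 1 and 2. The control libraries lay close together and the sh-MFAP2 libraries were at or next to 0. Values at that floor can show little spread, which keeps the standard error below small. The difference on the log2(FPKM + 1) scale was -5.22 (standard error 0.110, adjusted p = 0.00878 from limma), and no fold is given against a group listed at 0 in 1 library and next to 0 in the other. MT-TF was the only mitochondrial gene called, among the 0.122% of all genes tested that were called lower in sh-MFAP2 and the 0.273% called in either direction. It passed the filter on low values through the control libraries alone, and a gene that does so has to differ between the groups. The p-value of MT-TF therefore carries no support. When any 1 library was dropped, the difference stayed between -5.30 and -5.15, and MT-TF was no longer called. Such fits have fewer libraries to estimate the spread from, so the lost call is not a measure of MT-TF alone. In those fits the group left with 1 library is assumed to vary like the other.

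Groups that do not overlap are common in this table. For 31.4% of all genes tested the higher of the sh-MFAP2 values was below the lower control value, and the groups did not overlap in either direction for 48.9%. Of the 6 mitochondrial genes tested, MT-TF and MT-TP (33.3%) were lower in sh-MFAP2 without overlap, a share near the 31.4% of all genes, and the other 4 overlapped. For a single gene, the smallest two-sided p of an exact permutation test over 2 and 2 libraries is 0.33. Of the 6, 4 had a difference above 0. For MT-TF and MT-TP, fewer mitochondria per cell, less RNA per mitochondrion and the way values were listed cannot be told apart in RNA from whole cultures.

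The other 20 tRNA genes had no value that could be compared. MT-TN, for the asparagine tRNA, stood at 0 in both sh-MFAP2 libraries and at 8.5e-05 and 0.000238 FPKM in the controls. MT-TA, for the alanine tRNA and next to MT-TN on the same strand, was listed at 1e-06 FPKM in sh-MFAP2 replicate 1 and at 0 elsewhere. The remaining tRNA genes, 18 of 22 (81.8%), were listed at 0 in all 4 libraries. These include MT-TL1 and MT-TL2, both for leucine tRNAs, and MT-TV, the valine tRNA gene between the rRNA genes.

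Zeros were common among short nuclear genes too. Of 4129 nuclear genes of at most 100 bases, 93.9% were listed at 0 in all 4 libraries, as were 92.0% of the 388 small nucleolar RNA genes and 93.8% of the 3185 microRNA genes among them. Only 1 of the 4129, SNORD36C, a small nucleolar RNA, reached 5 FPKM in any library, with values of 5.14 and 2.18 FPKM with the MFAP2 hairpin and 1.31 and 2.23 FPKM in control. In both control libraries MT-TP and MT-TF were thus above every nuclear gene of at most 100 bases by the deposited transcript lengths.

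Of the rRNA genes, MT-RNR1 was listed at 0 in all 4 libraries. MT-RNR2, the 16S rRNA gene at chrM:1671-3229, was listed at 124 and 0 FPKM in replicates 1 and 2 of sh-MFAP2, against 0.837 and 0.955 FPKM in control replicates 1 and 2. It was high in 1 library and the controls lay between the sh-MFAP2 libraries, so that the groups overlapped. Its difference was 2.56 on the log2(FPKM + 1) scale with a standard error of 2.54 (adjusted p = 0.672 from limma), a size set by sh-MFAP2 replicate 1. Without that library its mean fell under the filter, and the gene was not tested. Without sh-MFAP2 replicate 2, where it was listed at 0, the difference was 6.05 (adjusted p = 0.130 from limma).

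**Figure D2:**
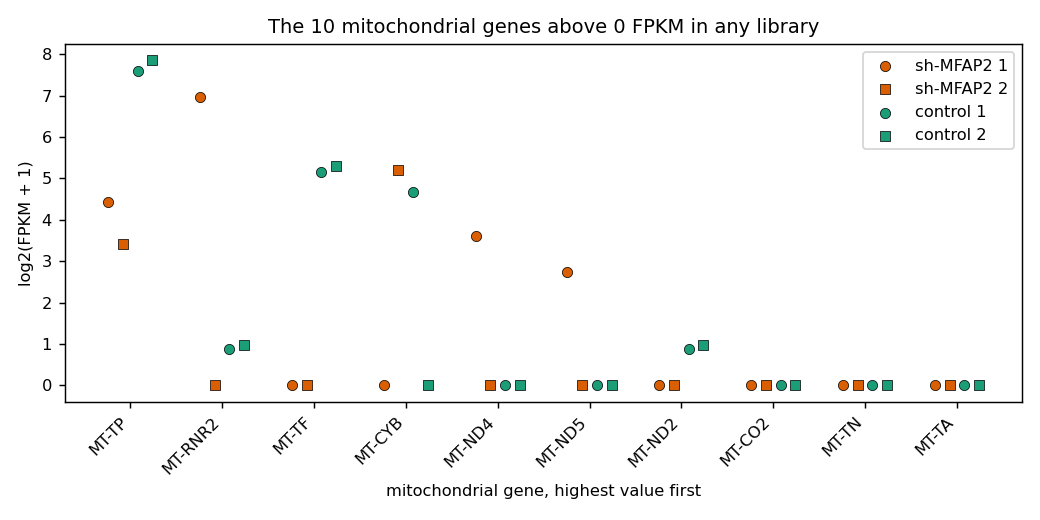
Values on the log2(FPKM + 1) scale (y axis) of the 10 mitochondrial genes above 0 in any library (x axis), with 1 point per library, sh-MFAP2 in orange and control in green, circles for replicate 1 and squares for replicate 2. MT-TP and MT-TF separate the groups, as does MT-ND2 at values below 1 FPKM, whereas MT-RNR2, MT-CYB, MT-ND4 and MT-ND5 separate libraries of the same group.

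Of the 13 protein genes, 8 (61.5%) were listed at 0 in all 4 libraries, and none was above 0 in all 4. The 8 were MT-ND1, MT-ND3, MT-ND4L and MT-ND6 of complex I, MT-CO1 and MT-CO3 of complex IV (cytochrome c oxidase), and MT-ATP6 and MT-ATP8 of ATP synthase. At least 1 gene of each of these complexes was therefore at 0, and for ATP synthase both genes were.

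MT-CYB encodes cytochrome b of complex III and is the only gene of that complex in the mitochondrial genome. It was listed at 0 and 35.9 FPKM in replicates 1 and 2 of sh-MFAP2, against 24.6 and 4.1e-05 FPKM in control replicates 1 and 2. Each group thus had 1 library at or next to 0 and 1 library at 24.6 FPKM or more. The difference was 0.26 on the log2(FPKM + 1) scale with a standard error of 2.55 (adjusted p = 0.973 from limma), and it changed sign with a library left out, to -2.34 without sh-MFAP2 replicate 2 and to -2.08 without control replicate 2.

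Complex I had 3 genes above 0. MT-ND4 was listed at 11.2 FPKM in sh-MFAP2 replicate 1 and at 0 in the other libraries (adjusted p = 0.585 from limma). MT-ND5 was listed at 5.72 FPKM in sh-MFAP2 replicate 1, at 0.000104 FPKM in control replicate 1 and at 0 in the other libraries (adjusted p = 0.585 from limma). Both were thus high in sh-MFAP2 replicate 1 alone, the library in which MT-RNR2 was high, and for both genes the sh-MFAP2 replicates disagreed. MT-ND2 was listed at 0 and 0.00111 FPKM with the MFAP2 hairpin, against 0.833 and 0.957 FPKM in control, with groups that did not overlap. Its mean over the libraries was under 1 FPKM, so that it was not among the genes tested. When the filter was lowered to a mean of 0.4 FPKM, an alternative chosen after seeing the data, MT-ND2 had a difference of -0.92 with a standard error of 0.0888 (adjusted p = 0.125 from limma). It passed that filter through the controls alone, so that it had to differ, and the p-value carries no support. For complex IV, MT-CO2 was listed at 0.000919 FPKM in sh-MFAP2 replicate 2 and at 0 in the other libraries.

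By class, the 3 protein genes that passed the filter had a median difference of 1.37, the 1 rRNA gene 2.56 and the 2 tRNA genes -4.51 on the log2(FPKM + 1) scale, beside a median of -0.05 over all 9873 genes tested. These medians cover 6 of the 37 genes. MT-TP, at 20.6 and 9.70 FPKM in sh-MFAP2, did not need the controls to pass the filter. Each of the others passed it through 1 or 2 libraries. Over all members the median difference was 0 for the 13 protein genes and 0 for the 22 tRNA genes, because most were listed at 0 throughout.

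Values changed abruptly between neighbours. Of the 10 genes above 0 in any library, 6 had both neighbours on the circle listed at 0 in all 4 libraries. MT-RNR2 lies directly between MT-TV and MT-TL1, and MT-CYB lies between MT-TE and MT-TT, all at 0. MT-ND4 shares 7 bases with MT-ND4L, which was listed at 0 also in the library where MT-ND4 had 11.2 FPKM. The exceptions were MT-TA with MT-TN, and MT-TF with MT-TP across the control region.

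The sum over all 37 genes was 162 and 45.6 FPKM in replicates 1 and 2 of sh-MFAP2, against 254 and 271 FPKM in control replicates 1 and 2. As a share of the summed FPKM of each library this was 0.0876% and 0.0228% in sh-MFAP2 and 0.129% and 0.144% in control. The sh-MFAP2 libraries were both below the controls, with a mean of 0.0552% ± 0.0458 (SD, n = 2) against 0.137% ± 0.0108 (SD, n = 2), and the exact two-sided permutation test gave p = 0.33, the smallest it can give. Without sh-MFAP2 replicate 2 the difference of -0.0814 percentage points became -0.0490. A different gene made up most of the sum in each sh-MFAP2 library, MT-RNR2 with 76.8% in replicate 1 and MT-CYB with 78.7% in replicate 2, whereas MT-TP made up 76.1% and 85.1% in the controls. The lower sum in sh-MFAP2 is thus a sum over different genes in each group. It is also a sum of values scaled by length, and on the read scale inferred below the groups overlapped.

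Depth is not stated by the authors, and a rough scale was inferred from the low values. For features of 1 transcript and over 1000 bases, between 56.3% and 59.3% of the low values lay within 0.05 of a whole multiple of 1 step per library. Values spread evenly would give 10% for a step fixed beforehand. The step was fitted to these same values, and values next to 0 were counted as on it. The share is therefore no test of the step. If 1 step is 1 read, the libraries held 54794500 to 75046900 reads each. The length used by the authors for such short features is not known, so that the read numbers below are approximate and carry no counting interval.

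On this scale MT-TP corresponded to 85.6 and 36.2 reads in sh-MFAP2 and to 778 and 1177 reads in control, and MT-TF to 145 and 205 reads in control. The 0.00709 FPKM of MT-TF in sh-MFAP2 replicate 2 corresponded to 0.0276 of a read. MT-RNR2 in sh-MFAP2 replicate 1 corresponded to 11830 reads, the largest number behind any mitochondrial value. MT-CYB corresponded to 2245 reads in sh-MFAP2 replicate 2 and 1663 in control replicate 1. Summed over the 37 genes, the reads were 13488 and 2282 in sh-MFAP2 replicates 1 and 2, against 2715 and 1569 in control replicates 1 and 2. The groups of these sums overlapped. Of the 148 values of the 37 genes, 125 were 0, 8 were above 0 but below 1 read, and 15 were 36.2 reads or more. No value lay between 0.0631 and 36.2 reads, so that a mitochondrial gene was listed either with at least 36.2 reads or with next to none.

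Uneven listing between libraries was compared with nuclear genes. A gene was counted as switching when it reached 5 FPKM in at least 1 library and lay under 10% of its highest value in another. All 6 mitochondrial genes that reached 5 FPKM switched. Among nuclear protein-coding genes that reached 5 FPKM, 44 of 61 with 1 exon (72.1%) and 131 of 6266 with 2 or more exons (2.09%) did so. The mitochondrial genes have 1 exon each, and whether exon number bears on the listing was not tested. MT-TP was the member nearest the limit, with 8.94% of its highest value in sh-MFAP2 replicate 1 and 4.21% in replicate 2.

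The switching genes differed in which libraries lay under 10% of the highest value, called low here. MT-TF and MT-TP were low in both sh-MFAP2 libraries, as were 9 nuclear genes, 5 of them with 1 exon. MT-TP was not near 0 there, at 20.6 and 9.70 FPKM. Low in both controls were 16 nuclear genes and no mitochondrial gene. MT-CYB was low in sh-MFAP2 replicate 1 and control replicate 2, as were 16 nuclear genes. MT-RNR2, MT-ND4 and MT-ND5 were low in all libraries other than sh-MFAP2 replicate 1, as were 7 nuclear genes.

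**Figure D3:**
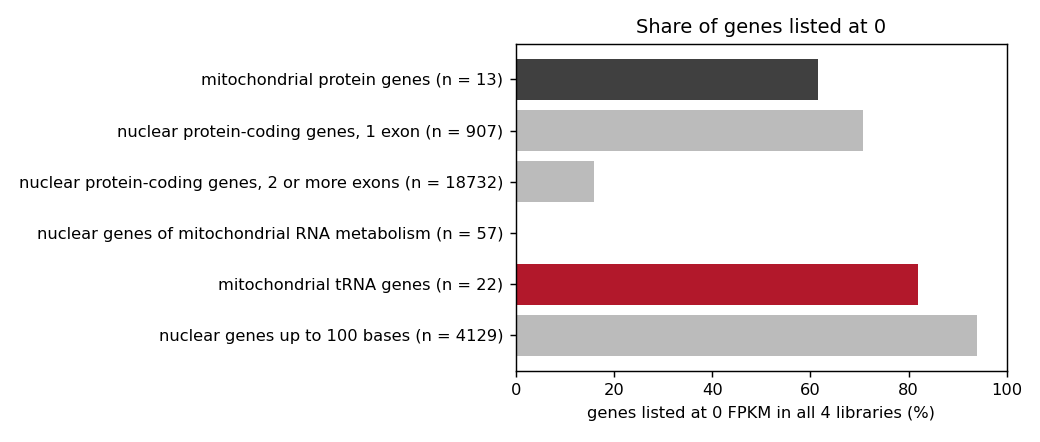
Percent of genes listed at 0 FPKM in all 4 libraries (x axis) for mitochondrial protein and tRNA genes and for nuclear genes (y axis, with the number of genes in each bar). Mitochondrial protein genes (61.5%) lie near nuclear protein-coding genes with 1 exon (70.8%) and far from those with 2 or more exons (15.9%), and no nuclear gene of mitochondrial RNA metabolism was at 0. Whether these sets differ in the share of genes expressed in AGS was not tested, nor was a part of exon number.

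Copies of mitochondrial sequence in the nuclear genome can share reads with the members. Each of the 13 protein genes shared some of its 25-base stretches with other annotated transcripts, from 5.28% for MT-ND3 to 75.4% for MT-CO1. MT-RNR2 shared 41.3%, MT-RNR1 none. Among the protein genes above 0, the shares were 10.8% for MT-CYB, 22.4% for MT-ND5, 32.3% for MT-ND4, 58.3% for MT-CO2 and 63.8% for MT-ND2. The part of shared sequence in the listing was not tested. In all, 106 nuclear genes shared at least 1 such stretch, and 16 of them were found by identifier in the gene table, 5 above 0 and none at 5 FPKM or more.

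By name, 12 nuclear copies were found, of which 9 were listed at 0 in all 4 libraries. MTRNR2L12, a nuclear copy of MT-RNR2 sequence, had 1.13 and 0.446 FPKM with the MFAP2 hairpin and 0.273 and 0.399 FPKM in control. Its highest value was in sh-MFAP2 replicate 1, where MT-RNR2 was highest too, but it was above 0 in sh-MFAP2 replicate 2, where MT-RNR2 was listed at 0. MTRNR2L8 reached 0.0741 FPKM and MTRNR2L3 0.0219 FPKM. Reads of MT-RNR2 and of these copies cannot be told apart where their sequences are identical, and how the authors' program divided them is not given in the sources used here.

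Of the nuclear genes that keep and express the mitochondrial genome, 40 reached 5 FPKM and 1 of them switched (2.5%), TRMT10C, described further below. Among all genes outside the mitochondrial genome that reached 5 FPKM the share was 3.07%. All 57 genes of 3 lists, on mtDNA replication and transcription, on mitochondrial RNA processing and stability, and on modification of mitochondrial tRNA and rRNA, were found, none was at 0 in all 4 libraries, and 52 were above 1 FPKM in every library. None of the 54 tested was called by limma, with 26 higher and 28 lower in sh-MFAP2 and a median difference of -0.00158. At an unadjusted p under 0.05 there were 3 (5.56%), against 12.3% of all genes tested. The groups did not overlap for 26 of the 54 (48.1%), near the share among all genes.

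The 3 genes were MRM3, MTPAP and PTCD1. MRM3, listed under its older name RNMTL1 and known to methylate the 16S rRNA, had 6.03 and 5.97 FPKM with the MFAP2 hairpin and 12 and 9.87 FPKM in control, a difference of -0.76 (standard error 0.135, adjusted p = 0.302 from limma). MTPAP, the mitochondrial poly(A) polymerase, had 4.32 and 4.80 FPKM with the MFAP2 hairpin and 2.82 and 2.88 FPKM in control, a difference of 0.53 (standard error 0.107, adjusted p = 0.330 from limma). PTCD1, a protein that binds mitochondrial leucine tRNAs, had 3.80 and 4.21 FPKM with the MFAP2 hairpin and 2.56 and 2.90 FPKM in control, a difference of 0.42 (standard error 0.116, adjusted p = 0.375 from limma). The groups of each gene did not overlap, and none of the differences was called.

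The lists were also described singly. On mtDNA replication and transcription, 7 of 15 genes tested were higher and 8 lower, with a median difference of -0.02. On RNA processing and stability, 10 of 20 were higher and 10 lower, with a median of 0.01. On tRNA and rRNA modification, 9 of 19 were higher and 10 lower, with a median of -0.00108.

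**Figure D4:**
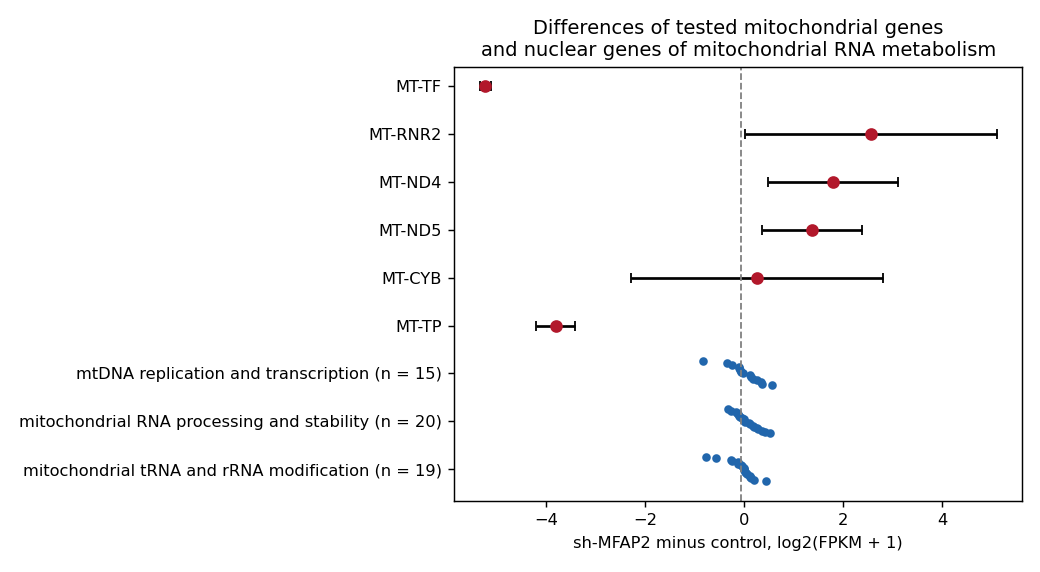
Differences of sh-MFAP2 minus control on the log2(FPKM + 1) scale (x axis) for the 6 mitochondrial genes tested, as red points with the standard error from limma, and for the genes tested of 3 nuclear lists, as 1 blue point per gene spread vertically in order of size (y axis). The dashed line is the median of all genes tested (-0.05). MT-TF (-5.22) and MT-TP (-3.80) have small errors, the errors of MT-RNR2 (2.54) and MT-CYB (2.55) are large, and all nuclear genes lie between -0.83 and 0.56. Both sh-MFAP2 values of MT-TF are at or next to 0, where little spread can show.

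Of 12 nuclear RNAs without a poly(A) tail that were looked up, 11 were found, and 4 of them were listed at 0 in all 4 libraries. RMRP, the RNA of RNase MRP, was the only one to pass the filter, with 0 and 1.95 FPKM with the MFAP2 hairpin and 6.21 and 0.430 FPKM in control, and the other 10 reached at most 0.348 FPKM. How RNA was selected for the libraries is not given in the sources used here, and its part in the listing of mitochondrial RNAs was not tested.

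For the series as a whole, MFAP2 itself stood at 0 with the hairpin against it and at 0.0116 and 0.0138 FPKM in control, too low to check the labels. Markers of gastric epithelium were present, with EPCAM at 193 to 210 FPKM and the summed level of 7 markers at 1952 to 2032 FPKM with the MFAP2 hairpin and 1801 to 2024 FPKM in control. CLDN4, a tight junction gene of that list, was at 47.1 FPKM in sh-MFAP2 replicate 1 and at 0.0151 to 0.551 FPKM in the other libraries. Endothelial markers (4 of 4), fibroblast markers other than COL1A1 (5 of 6) and immune markers other than LYZ (4 of 5) were all at or below 0.0656 FPKM. COL1A1, which encodes a collagen chain, had 2.27 and 2.07 FPKM with the MFAP2 hairpin and 4.36 and 4.92 FPKM in control, and LYZ, the lysozyme gene, had 85.5 and 579 FPKM with the MFAP2 hairpin and 89.3 and 369 FPKM in control. Their part in the mitochondrial values was not tested.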

How the data were processed

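The authors deposited 1 table of 47251 genes and 1 of 180500 transcripts with 1 value per library, taken here as FPKM from the values, since the tables name no unit. The submitters' processing notes name hg38. The aligner, estimating program, annotation, strand setting and filters are not given in the sources used here. All 37 MT- genes had the same values in both tables. Positions, exon numbers and sequences came from GENCODE 29 on GRCh38, in which 43715 genes (92.5%) were found by identifier.

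Genes whose mean reached 1 FPKM were tested on log2(FPKM + 1), a scale that understates changes of low genes, with lmFit and eBayes (trend) in limma 3.58.1 under R 4.3.3 and Benjamini-Hochberg adjustment over all genes tested. A gene was called at p under 0.01 and adjusted p under 0.05, the limits of the study's methods, whose random variance model test limma replaces here. The fit was tested on data simulated with normal spread from its own variance model. That simulation did not model genes listed at 0 or switching, so it does not bear on the mitochondrial genes. Depth was inferred from steps between low values, which 56.3% to 59.3% of them met, too few to treat the values as whole reads or to run a count test. Lists of nuclear genes were matched by identifier. All MT- genes are named, with the list genes of smallest p and the highest nuclear copies. The members and lists were chosen with earlier results of these data known. Python 3.11.15, pandas 2.3.3, numpy 2.4.6, scipy 1.17.1 and matplotlib 3.10.9 were used. The alternatives were other filters, pseudocount, scalings, variance model and thresholds, the replicate number as a block, the transcript table, and each library left out in turn.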

Additional observations from a re-analysis of the deposited data

How the results depend on the processing

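Against 1 mitochondrial gene called, the count was 2 at an unadjusted p under 0.05 alone, which adds MT-TP, 0 with the replicate number as a block and 0 in every fit that dropped 1 library. A fit without 1 library has fewer libraries to estimate the spread from, so a call lost there is not a measure of that gene alone. Same-numbered libraries correlated at -0.0572 over genes in their deviations from the group means. With 2 libraries per group, this cannot exclude a batch shared by same-numbered libraries. With the block the adjusted p of MT-TF in limma was 0.0957, and the count over all genes went from 27 to 0, with 722 below an unadjusted p of 0.05. The count stayed at 1 under the other filters, pseudocount, scalings, variance model and transcript table, and at adjusted p under 0.1 alone. The gene called was MT-TF each time, which passed the main filter through the controls alone, so the unchanged count carries no support. Over the alternatives that kept all 4 libraries, its adjusted p in limma was 0.00537 to 0.0957. That of MT-TP in limma was 0.128 to 0.389, and MT-TP was not called where the limit on adjusted p was kept.

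The median difference of the protein genes tested was 0.26 with no filter (5 genes) and with a mean of at least 5 FPKM (1 gene), 2.93 with a pseudocount of 0.1 and 1.37 to 2.87 with each library left out, the highest without sh-MFAP2 replicate 1, where MT-CYB alone was tested. That of the tRNA genes was -1.90 with no filter, which adds MT-TA and MT-TN, -6.18 with a pseudocount of 0.1 and -4.76 to -4.26 with each library left out. MT-CYB reversed to -2.34 without sh-MFAP2 replicate 2 and to -2.08 without control replicate 2. The difference in the mitochondrial share ran from -0.114 to -0.0490 percentage points with each library left out, smallest without sh-MFAP2 replicate 2. No gene of the 3 nuclear lists was called by limma under the other filters, pseudocount, scalings and variance model, the block or the fits without 1 library, with 1 to 9 below an unadjusted p of 0.05. Beyond the samples and genes entering each fit, the cause was not tested. Without recovered reads, depth limits what a value near 0 can show.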

Other observations

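These values were chosen after they were seen. TRMT10C, a subunit of the mitochondrial RNase P that cuts at tRNAs, was the only gene of the 3 nuclear lists that switched. Its values were 0 and 34.5 FPKM in replicates 1 and 2 of sh-MFAP2, against 34.8 and 0.00358 FPKM in control replicates 1 and 2. The libraries near 0 were those in which MT-CYB was near 0, and MT-CYB had 35.9 and 24.6 FPKM in the other libraries. TRMT10C is 1 of 16 nuclear genes near 0 in just these libraries, and a link to MT-CYB was not tested. The difference of TRMT10C between groups was -0.01 with a standard error of 2.65 (adjusted p = 0.999 from limma).

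In both controls MT-RNR2 and MT-ND2, which lie apart on the molecule, had close values, 0.837 and 0.833 FPKM in replicate 1 and 0.955 and 0.957 FPKM in replicate 2. On the inferred scale these correspond to 77.2 and 51.4 reads in replicate 1 and to 112 and 74.8 reads in replicate 2.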
